A study of Homo sapiens with 6 samples.

Results

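Of 19997 protein-coding genes measured in HL-60 cells, 63 had at most 20 counts summed over the 3 control libraries and at least 20 counts in each of the 3 EZH2 shRNA libraries. The HL-60 line comes from an acute myeloid leukemia, carries a mutated RAS gene and resembles promyelocytes. Controls were HL-60 cells with a lentiviral scrambled shRNA (libraries numbered 3, 4 and 5), and the other group were HL-60 cells with a lentiviral shRNA against EZH2 (libraries 1, 3 and 4). Both groups had been made stable with puromycin, which was removed before the experiment, and both spent 24 hours in medium with 0.05% fetal bovine serum before polyadenylated RNA was sequenced. The sample labels speak of a knockdown, the series text of a knock-out, and neither mentions clones. Whether the libraries of a group stem from separate cultures is not said, so a p-value here covers the variation among these libraries alone, possibly technical variation.

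EZH2 is the catalytic subunit of PRC2, a Polycomb complex that methylates a lysine of histone H3. This mark is known to keep genes of other tissues and developmental stages silent, and its usual sites are promoters rich in CpG dinucleotides. No chromatin was measured here. Because the 63 genes were chosen by their counts in these same libraries, the difference between the groups is a description of the choice and carries no test.

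EZH2 was at 147.5, 150.4 and 150.2 CPM (counts scaled to a common library size) in the controls, ordered by library number here and below. With EZH2 shRNA it was at 79.43, 83.17 and 77.22 CPM. The targeted gene thus fell by 0.90 on the log2 scale (edgeR, SE 0.041, adjusted p = 3.22e-11), and its groups did not overlap. Total counts lay between 39717343 and 85074624, and library 4 of the EZH2 shRNA group was the deepest. Of 15 promyelocyte marker genes 13 were at 10 CPM or more in every library. The exceptions were CD38 and the elastase gene ELANE. Intervals of ratios below are exact 95% intervals and cover counting error only, as does the floor of 3 counts used for a gene at 0. They rest on the same counts that chose the genes, and that choice favours high ratios. The intervals are therefore no test of a difference between the groups.

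The 63 genes were 0.765% of the 8238 protein-coding genes at or under the control limit. With the groups exchanged, the same limits found 8 genes, 0.102% of 7809. The EZH2 shRNA libraries were deeper in sum (189084260 against 133443380 counts). With every library scaled to the smallest total, 38 genes were switched on and 15 switched off. Of the 63 genes 36 were among those 38.

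**Figure D1:**
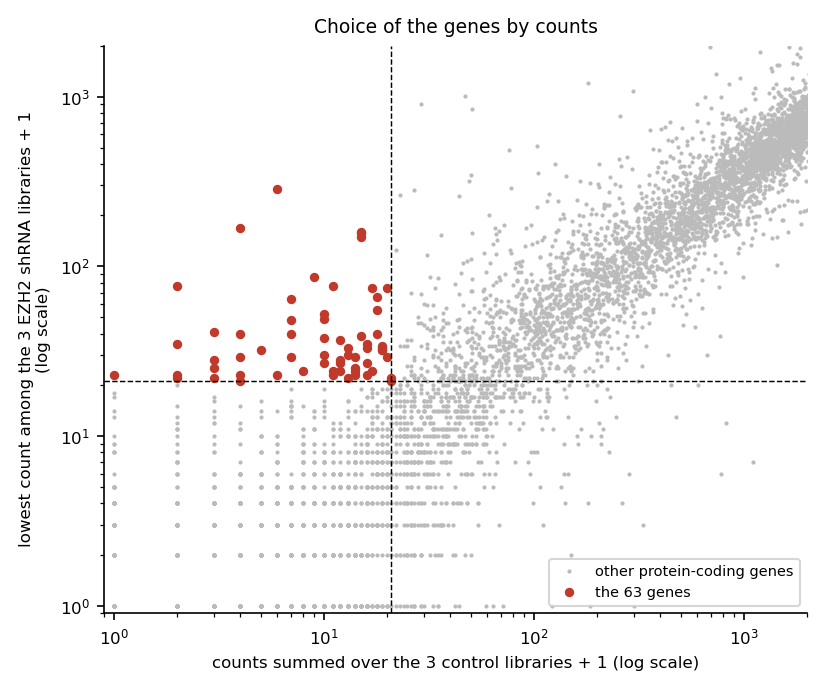
Each point is a protein-coding gene, with its counts summed over the 3 control libraries on the x axis and its lowest count among the 3 EZH2 shRNA libraries on the y axis (both plus 1, log scales, with the highest genes beyond the axes). Dashed lines mark the 2 limits, and the 63 genes fill the upper left corner, most of them close to the lower limit.

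At the edge of the choice stood KDELR3 and AL157935.2, each with 20 counts over the controls, ZNF488 with 19, and DTNA and RAB3B, whose lowest EZH2 shRNA counts were 20 and 21. Just outside were POPDC3 with 21 counts over the controls and FOXN4 and FCGR2B with 22 each. With EZH2 shRNA FOXN4 had 261, 343 and 420 counts, POPDC3 124, 154 and 211, and FCGR2B 33, 54 and 66. On the other limit SHISA2 and FBP1 missed with a lowest count of 19 and EPAS1 with 18. FBP1 had 1 count over the controls, so a gene left out may be as silent in controls as those chosen.

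How silent the genes were in controls varied. SLC40A1 alone had 0 counts in all 3 control libraries, 13 genes had 1 to 3 counts in sum, 17 had 4 to 10 and 32 had more than 10. The ratio of summed counts between the groups, each relative to the group's library sizes, over the 62 genes with a control count, had a median of 9.53 and ran from 2.74 (AL157935.2) to 187 (FBLN1). It was 10 or more for 31 genes and under 5 for 9. In FPKM, which is per length, the lowest EZH2 shRNA library was above the highest control library for 63 of 63 genes, an order that the choice nearly fixes. The closest approach was RAB3B, a synaptic vesicle GTPase, with a factor of 1.28 between these libraries.

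The levels reached were low. Mean FPKM over the EZH2 shRNA libraries had a median of 0.146 over the 63 genes, against a median of 0.0125 for their control means. Only MT1A passed 1 FPKM, 5 genes were at 0.5 or more, and 45 were at 0.1 or more. Of 14901 protein-coding genes with a count, the median in EZH2 shRNA libraries was 2.79 FPKM. No member reached that median, and their percentiles ran from 17.5 (CIITA) to 42.7 (MT1A). Summed over the members, the controls were at 4.96, 4.56 and 4.76 CPM, and the EZH2 shRNA libraries at 62.7, 65.9 and 62.0 CPM. The 5 genes with the most counts, IKZF3, GABBR1, SLC1A1, TEX15 and GRIP1, held 32% of the EZH2 shRNA sum. RNA from whole cultures cannot tell a low level in every cell from a higher level in few cells.

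**Figure D2:**
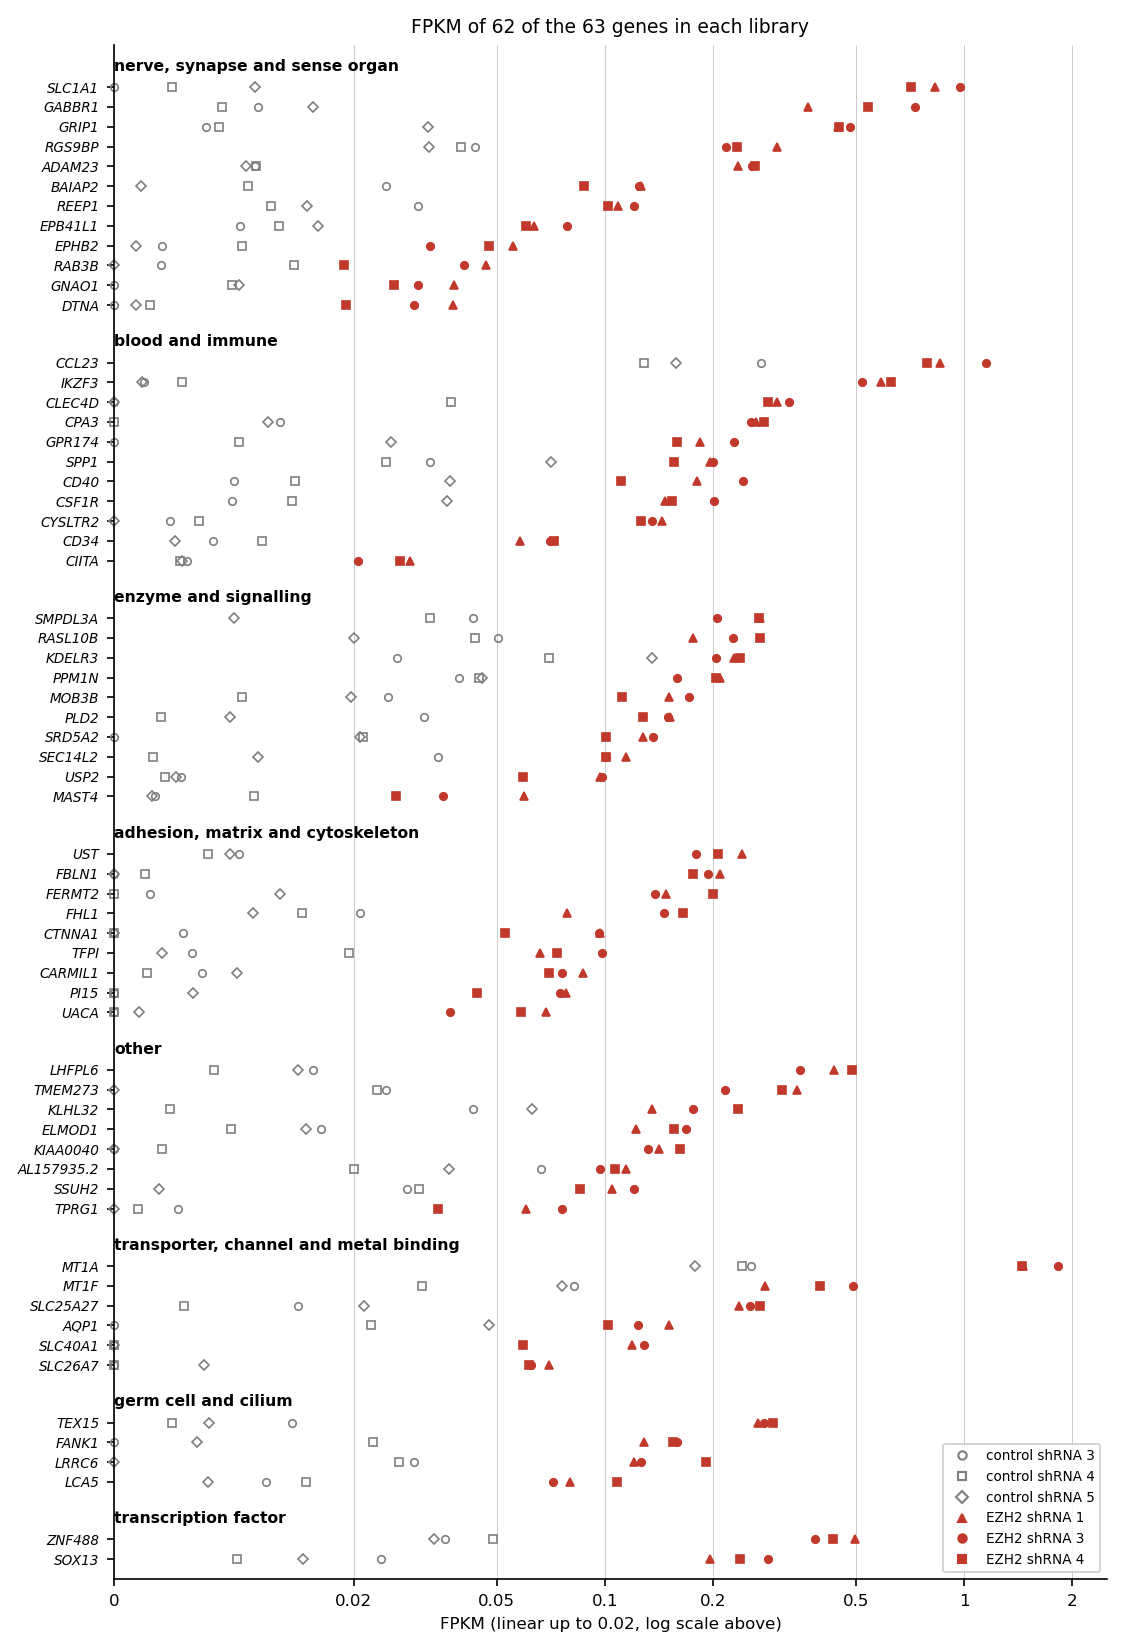
FPKM of 62 of the 63 genes in each library, with open grey symbols for the 3 control libraries and filled red symbols for the 3 EZH2 shRNA libraries, grouped by class and ordered by the EZH2 shRNA mean (axis linear up to 0.02 and logarithmic above). In every row the red symbols lie to the right of the grey ones, and only MT1A has red symbols beyond 1 FPKM in all 3 libraries.

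To describe what kinds of genes these were, each was placed by hand in a class by what it is known for. By that reading 13 genes belong to nerve, synapse or sense organ, 11 to blood and immune cells, 10 are enzymes and signalling proteins, 9 serve adhesion, matrix or cytoskeleton, 6 are transporters, channels or metal-binding proteins, 4 belong to germ cells or cilia and 2 are other transcription factors. A further 8 were left without a class.

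Upstream sequences of 4 members are shown as examples of the CpG-rich and CpG-poor members described further on. They are the 250 bases before the RefSeq start (GRCh38.p14), 5′ to 3′ on the strand of the gene, with CpG dinucleotides in capitals. GABBR1 (chr6:29628014-29628263, minus strand) held 20 CpG and SLC1A1 (chr9:4490218-4490467, plus strand) 24. SOX13 (chr1:204072865-204073114, plus strand) held 8 and TMEM273 (chr10:49188392-49188641, minus strand) 2.
GABBR1: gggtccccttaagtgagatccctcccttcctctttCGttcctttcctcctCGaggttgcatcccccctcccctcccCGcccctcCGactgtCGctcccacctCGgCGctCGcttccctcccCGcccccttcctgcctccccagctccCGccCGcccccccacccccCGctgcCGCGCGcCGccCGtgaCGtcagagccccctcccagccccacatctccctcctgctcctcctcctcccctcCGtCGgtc
SLC1A1: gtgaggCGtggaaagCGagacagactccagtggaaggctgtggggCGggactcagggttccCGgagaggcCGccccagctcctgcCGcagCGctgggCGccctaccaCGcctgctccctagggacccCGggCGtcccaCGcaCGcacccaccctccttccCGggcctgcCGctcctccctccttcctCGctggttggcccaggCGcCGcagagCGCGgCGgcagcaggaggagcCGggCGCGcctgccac
SOX13: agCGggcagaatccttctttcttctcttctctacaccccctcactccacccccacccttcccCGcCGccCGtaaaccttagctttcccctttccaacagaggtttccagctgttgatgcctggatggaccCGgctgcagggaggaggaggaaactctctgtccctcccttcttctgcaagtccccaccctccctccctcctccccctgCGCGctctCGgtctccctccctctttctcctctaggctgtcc
TMEM273: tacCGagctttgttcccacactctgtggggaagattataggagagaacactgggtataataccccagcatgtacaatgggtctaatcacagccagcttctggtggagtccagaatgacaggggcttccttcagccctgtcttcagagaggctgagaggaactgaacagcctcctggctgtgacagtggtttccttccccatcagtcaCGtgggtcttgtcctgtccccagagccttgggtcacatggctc

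Among the nerve and synapse genes, the neuronal glutamate transporter SLC1A1 (chromosome 9, 4490468 to 4587469, GRCh38, plus strand) reached the highest FPKM. Control counts were 0, 1 and 2, and counts with EZH2 shRNA were 166, 209 and 242. The FPKM values were 0, 0.00481 and 0.0118 in controls and 0.831, 0.976 and 0.711 with EZH2 shRNA, a ratio of 146 (49.9 to 712). SPATA6L overlaps it on the other strand at means of 0.135 CPM in controls and 0.325 CPM with EZH2 shRNA, where SLC1A1 was at 3.36 CPM.

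GABBR1 (chromosome 6, 29555629 to 29633976, minus strand) encodes a subunit of the metabotropic GABA receptor. It had 4, 4 and 6 counts in controls and 157, 333 and 393 with EZH2 shRNA. In FPKM the EZH2 shRNA libraries 1, 3 and 4 were at 0.369, 0.730 and 0.542. Library 3 was 1.97 times library 1 in CPM, one of the wider spreads among the members. GRIP1, a scaffold for AMPA-type glutamate receptors, varied less, at 0.445, 0.483 and 0.450 FPKM against 0.00771, 0.00873 and 0.0322 in controls. The helicase gene HELB overlaps GRIP1 on the other strand at means of 11.4 CPM in controls and 9.42 CPM with EZH2 shRNA (log2 fold change -0.28, edgeR adjusted p = 0.0106, and 0.0747 without EZH2 shRNA library 4). Reads of the 2 genes may not be separated if strand was not used in counting.

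The remaining members of this class were weaker. ADAM23, a surface protein of neurons, had 3, 4 and 3 counts in controls and 76, 89 and 144 with EZH2 shRNA, and the latter were even in FPKM (0.235, 0.257 and 0.262). EPHB2, a receptor of ephrins in axon guidance, was at a mean of 0.0453 FPKM. GNAO1, a G protein subunit abundant in brain, had 0, 7 and 6 counts in controls and 26, 22 and 30 with EZH2 shRNA (ratio 4.27, 2.36 to 8.38). BAIAP2, a regulator of actin in dendritic spines, had 10, 6 and 1 counts and then 65, 69 and 77 counts, a mean of 0.113 FPKM. REEP1 (0.111), a protein of the endoplasmic reticulum in axons, EPB41L1 (0.0676), a neuronal membrane skeleton protein, RAB3B (0.0355) and DTNA (0.0289), a dystrobrevin, were the other weak members. RGS9BP, which anchors a regulator of phototransduction, had 5, 6 and 4 counts in controls and 44, 34 and 58 with EZH2 shRNA. It overlaps ANKRD27 on the other strand, which was at means of 98.2 CPM in controls and 143 CPM with EZH2 shRNA.

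Among the blood and immune genes, IKZF3 (chromosome 17, 39757718 to 39864312, minus strand), a zinc finger factor of lymphocytes also called Aiolos, had the most counts of all members. Control counts were 1, 3 and 1, and counts with EZH2 shRNA were 300, 284 and 542, which is 0.589, 0.521 and 0.625 FPKM. The 3 EZH2 shRNA libraries lay close together and the ratio was 160 (68.5 to 495). Other lymphoid markers differed too: of 12 tested genes that are not members 7 rose and 2 fell. Among all tested protein-coding genes, 28.3% rose and 28.7% fell (edgeR adjusted p under 0.05). The summed level of the 60 listed genes was 106 to 113 CPM in controls and 223 to 243 CPM with EZH2 shRNA. IGLL1, a part of the pre-B cell receptor, made up much of that sum, at mean levels of 39.8 and 125 CPM. PAX5 of B cells also rose, from a mean of 17.3 CPM in controls to 36.7 CPM with EZH2 shRNA. CD247 of T cells rose from 2.42 to 5.16 CPM, while GZMA and EOMES fell (1.69 to 1.06 CPM and 1.39 to 0.914 CPM). GATA3 had 0 counts over the controls and 60 over the EZH2 shRNA libraries (log2 fold change 7.06, edgeR adjusted p = 8.55e-05). Of the 60 genes 28 were at 0 in all 6 libraries, among them MS4A1 and CD79B of B cells and CD3G and CD8B of T cells. The part of lymphoid marker expression in the IKZF3 result was not tested.

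Receptors made up much of this class. CSF1R, the receptor of macrophage colony-stimulating factor, had 2, 4 and 8 counts in controls and 38, 56 and 68 with EZH2 shRNA, at 0.147, 0.202 and 0.154 FPKM. The processed pseudogene RPL7P1 lies within it on the other strand at means of 801 and 836 CPM, which did not pass the test (log2 fold change 0.06, edgeR adjusted p = 0.445). CYSLTR2, a leukotriene receptor found on eosinophils, had 1, 2 and 0 counts and 39, 39 and 58 counts. GPR174, a lysophosphatidylserine receptor of lymphocytes, had 0, 3 and 6 counts and 51, 68 and 75 counts. Neither group overlapped the other in these 3 genes, as in all 63 members, an order that the choice nearly fixes. CD40, the costimulatory receptor of B cells and macrophages, was uneven among the EZH2 shRNA libraries, at 0.181, 0.242 and 0.111 FPKM. CLEC4D, a lectin receptor of myeloid cells, had counts in 1 of 3 control libraries (4 counts in library 4) and 0.301, 0.326 and 0.285 FPKM with EZH2 shRNA. CD34, the surface marker of blood progenitors, had 3, 6 and 2 counts in controls and 27, 35 and 57 with EZH2 shRNA, at a mean of 0.0670 FPKM.

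CPA3, the carboxypeptidase of mast cell granules, had 1, 0 and 1 counts in controls and 24, 25 and 43 with EZH2 shRNA (0.263, 0.256 and 0.277 FPKM). Of the other mast cell, basophil and eosinophil markers 18 were tested, of which 14 rose and 1 fell, beside 28.3% and 28.7% of all tested protein-coding genes. Among the 14 that rose were IL5RA, CLC and EPX (log2 fold changes 6.39, 6.33 and 4.21), IL1RL1 (3.25) and HDC (2.79). IL3RA fell (-1.34). Of the mast cell markers KIT had 8 counts over the controls and 4 over the EZH2 shRNA libraries, and FCER1A had 0 and 3. MS4A2 did not pass the test (edgeR adjusted p = 0.708). The list's summed level was 287 to 291 CPM in controls and 843 to 847 CPM with EZH2 shRNA, with the transcription factor gene GATA2 alone at means of 122 and 435 CPM, and PTGDS and the tryptase gene TPSG1 were at 0 in all libraries. Their part in the CPA3 result was not tested. CIITA, the activator of MHC class II genes, had the lowest mean FPKM of all members (0.0254, from 0.0288, 0.0206 and 0.0270) with 5, 6 and 5 counts in controls, and overlaps DEXI on the other strand. The chemokine gene CCL23 had 8, 5 and 5 counts in controls and 32, 46 and 50 with EZH2 shRNA, and a small ratio of 5.06 (3.08 to 8.82). SPP1, which encodes osteopontin, had a ratio of 4.33 (2.39 to 8.48).

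TEX15, a gene of male germ cells needed for meiosis, led the germ cell and cilium genes. It had 7, 3 and 4 counts in controls and 159, 177 and 300 with EZH2 shRNA, with little spread in FPKM (0.267, 0.277 and 0.295). FANK1, another testis gene, had 0, 4 and 1 counts and 22, 29 and 45 counts. LRRC6, needed to assemble the dynein arms of cilia, had 5, 6 and 0 counts and 26, 29 and 70 counts, and LCA5, a ciliary protein of photoreceptors, reached a mean of 0.0865 FPKM.

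Of the adhesion, matrix and cytoskeleton genes, FBLN1, which encodes the matrix protein fibulin, had the largest ratio of all members. FBLN1 was counted 0, 1 and 0 times in controls and 77, 76 and 110 times with EZH2 shRNA (ratio 187, 33.3 to 7424), and its FPKM was 0.210, 0.194 and 0.176. CTNNA1 (chromosome 5, 138610967 to 138935034, plus strand), the alpha-catenin that links cadherins to actin, had 2, 0 and 0 counts in controls and 43, 46 and 40 counts with EZH2 shRNA. Scaled for depth, CTNNA1 was lower in EZH2 shRNA library 4 (0.0529 FPKM) than in libraries 1 and 3 (0.0969 and 0.0967). FERMT2, a kindlin that activates integrins, had 1, 0 and 5 counts and then 63, 63 and 145 counts. UST, a sulfotransferase acting on matrix sugars, had 2 counts in each control library and 59, 47 and 86 counts with EZH2 shRNA. UACA (1 count over the controls), PI15 (2 counts) and CARMIL1 (6 counts), a regulator of actin capping, reached 0.0548, 0.0657 and 0.0776 FPKM. FHL1, a muscle LIM protein, had 5, 5 and 3 counts in controls and 24, 48 and 86 with EZH2 shRNA. TFPI, an inhibitor of blood coagulation, had 3, 12 and 2 counts and then 39, 62 and 74 counts.

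Among transporters, SLC40A1, the iron exporter ferroportin, was the gene with 0 counts in every control library. It had 26, 30 and 22 counts in EZH2 shRNA libraries 1, 3 and 4, at least 18.5-fold higher than a floor of 3 counts over the control group. In FPKM these libraries were at 0.119, 0.129 and 0.0594, so library 4 was lower than the others. SLC25A27, a mitochondrial carrier of the uncoupling protein family, had 2, 1 and 3 counts in controls and was even across the EZH2 shRNA libraries (39, 45 and 76 counts, or 0.236, 0.254 and 0.270 FPKM). The anion exchanger gene SLC26A7 had 0, 0 and 2 counts in controls and 22, 21 and 33 with EZH2 shRNA, and shares its strand with the overlapping LRRC69. The water channel gene AQP1 had 0, 4 and 7 counts and then 26, 23 and 30 counts.

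The metallothionein genes MT1A and MT1F lie 17.6 kb apart on chromosome 16. Metallothioneins are small proteins that bind zinc and copper, and their genes stand in 1 cluster. MT1A was at 0.256, 0.241 and 0.178 FPKM in controls and at 1.46, 1.83 and 1.45 with EZH2 shRNA, and MT1F at 0.0820, 0.0310 and 0.0761 and then 0.279, 0.491 and 0.397. The groups did not overlap in either gene, which the choice nearly fixes for these 2 members. The other expressed genes of the cluster also rose: MT1G by 2.64 (SE 0.29, adjusted p = 1.32e-06), MT1X by 2.16 (SE 0.11, adjusted p = 2.25e-10) and MT2A by 1.21 (SE 0.059, adjusted p = 7.97e-10) on the log2 scale of edgeR. MT2A was the most abundant of them, with 2114, 2512 and 1973 counts in controls and 5815, 6483 and 8999 with EZH2 shRNA. MT1E, MT1M, MT1B, MT1H, MT3 and MT4, which stand between and beside them, had 0 counts in all 6 libraries. Metallothionein genes are near copies of each other, so reads may have been assigned to a sister gene or dropped, and a count of 0 is uncertain for that reason.

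**Figure D3:**
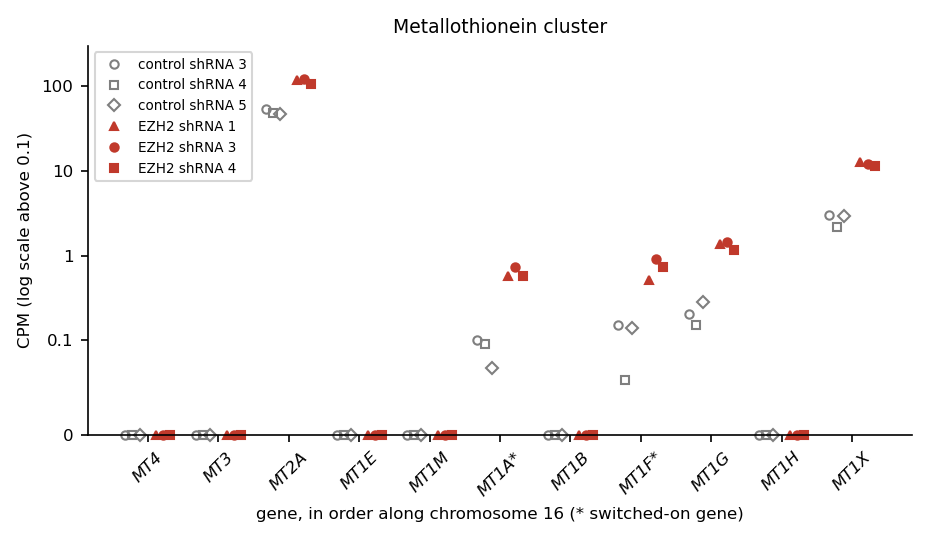
CPM of 11 metallothionein genes in their order along chromosome 16, with open grey symbols for control libraries and filled red symbols for EZH2 shRNA libraries (logarithmic above 0.1). MT2A, MT1A, MT1F, MT1G and MT1X are higher in all 3 EZH2 shRNA libraries, and the other 6 genes are at 0 throughout.

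SOX13, an SRY-related transcription factor, had 7, 4 and 5 counts in controls and 73, 114 and 151 with EZH2 shRNA (0.196, 0.285 and 0.238 FPKM). ZNF488, a zinc finger gene of oligodendrocytes, had 5, 9 and 5 counts and then 88, 73 and 130 counts. The enzymes and signalling proteins reached between 0.0404 FPKM (MAST4, a kinase) and 0.248 FPKM (SMPDL3A, a phosphodiesterase related to acid sphingomyelinase). Phospholipase PLD2 had 6, 1 and 2 counts in controls and 37, 39 and 53 with EZH2 shRNA, and the deubiquitinase USP2 had 1 count in each control library and 22, 24 and 23 counts. SRD5A2, the steroid reductase that makes dihydrotestosterone, had 0, 5 and 4 counts and then 29, 33 and 39. MOB3B, a kinase regulator, had 7, 4 and 6 counts and then 54, 66 and 68 counts. SEC14L2, a lipid-binding protein that overlaps RNF215 on the other strand, was at 0.106 FPKM. The phosphatase PPM1N and KDELR3, a receptor for retrieval to the endoplasmic reticulum, were at 0.191 and 0.224 FPKM. RASL10B, a RAS-like protein, had 7, 8 and 3 counts in controls and 31, 43 and 81 with EZH2 shRNA. Each of these last 3 overlaps a gene with more counts: RTN2 on the other strand of PPM1N (means of 1.92 CPM in controls and 5.86 CPM with EZH2 shRNA), DDX17 on the other strand of KDELR3 (839 and 811 CPM, log2 fold change -0.05, not past the test), and TAF15 on the same strand as RASL10B (236 and 295 CPM).

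Of the genes without a class LHFPL6, a tetraspan membrane protein, was the strongest, with 3, 2 and 3 counts in controls and 100, 86 and 191 with EZH2 shRNA (0.436, 0.350 and 0.489 FPKM). TMEM273, a membrane protein, had 4, 5 and 0 counts and then 71, 48 and 110 counts. KIAA0040 had 1 count over the controls and 34, 34 and 66 counts with EZH2 shRNA. ELMOD1 had 4, 3 and 4 counts in controls and 36, 53 and 78 with EZH2 shRNA. KLHL32 had 7, 1 and 11 counts and then 28, 39 and 83 counts. SSUH2 and TPRG1 reached means of 0.104 and 0.0569 FPKM. AL157935.2, with the smallest ratio (2.74, 1.66 to 4.73), shares strand and position with AK1 and ST6GALNAC6, and AK1 itself was at means of 0.318 CPM in controls and 1.28 CPM with EZH2 shRNA. In all, 12 of the 63 genes overlap another protein-coding gene with a count.

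Within the EZH2 shRNA group the members were fairly even. The highest library exceeded the lowest by a median of 1.40 times in CPM, by over 1.5 times for 21 genes and by over 2 times for 6. These 6 were RAB3B, MAST4, TPRG1, CD40, SLC40A1 and FHL1, with RAB3B at 2.44 times. The highest level was in library 1 for 25 genes, in library 3 for 23 and in library 4 for 15. The deepest library, 4, held the lowest level for 29 genes. The limit of raw counts was the same in each library and is therefore a lower CPM in the deepest one. A gene low in library 4 could pass where a gene as low in library 1 or 3 was left out. The choice thus favours library 4 as the lowest, and a minimum in every library favours evenness. Neither the order of the libraries nor the evenness is a result apart from the choice.

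Gene lists and families give the denominators. Of 98 neural and synaptic genes silent in controls 4 were switched on (GABBR1, SLC1A1 and GRIP1 among them), of 184 solute carrier genes 4, of 80 germline genes 1, of 49 lymphoid genes 1 and of 16 mast cell, basophil and eosinophil genes 1. That GABBR1, SLC1A1, GRIP1, TEX15 and IKZF3 are high with EZH2 shRNA was known from earlier results when the lists were written, so the counts of their lists are not independent evidence. CPA3 was listed without knowledge of its own level, but its list was also written with earlier results of these data known. None was switched on among 150 silent developmental transcription factor genes, 21 HOX genes, 78 potassium channel genes, 53 keratin genes, 59 protocadherin genes, 40 epithelial genes, 79 cancer-testis genes of the MAGE and related families and 382 olfactory receptor genes. At the share over all silent genes, 0.765%, a list of such size would hold few members or none, so a count of 0 is no result for most of them. Nor does it mean that no gene rose. MAGEB1 missed the library limit with 0 control counts and 59 with EZH2 shRNA (log2 fold change 7.12, edgeR adjusted p = 7.39e-05). Of 3 tested genes of these cancer-testis families 1 rose and 0 fell. FOXN4, just past the control limit, is on the developmental list. Of 36 tested developmental genes 12 rose and 3 fell. For HOX genes 9 of 18 rose and 3 fell, beside 28.3% and 28.7% of all tested protein-coding genes.

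The 63 genes were spread over 22 chromosomes. Chromosome 6 held 7 of them (11.1%, against 5.23% of protein-coding genes), chromosome 1 held 6 (9.52%, against 10.2%) and chromosomes 2 and 17 held 5 each (7.94%, against 6.25% and 5.93%). Chromosomes 21 and Y, with 114 and 45 control-silent genes, held none, and at 0.765% neither would be due 1. Apart from MT1A and MT1F, members within 500 kb of each other were GNAO1, 281 kb from MT1A, and the pair RASL10B and CCL23, 270 kb apart on chromosome 17. Between GNAO1 and the metallothionein genes lie, among others, OGFOD1, which did not pass the test (log2 fold change -0.01), NUDT21, which fell (-0.34, edgeR adjusted p = 1.34e-06), and BBS2, which rose (0.31, edgeR adjusted p = 0.000199). Around CCL23 the chemokine genes CCL3, CCL4 and CCL5 rose by 1.10, 1.76 and 0.42 (edgeR adjusted p = 0.0033, 0.0075 and 6.56e-07), while CCL14, CCL15, CCL16 and CCL18 had 0 counts in every library. Members spanned a median of 66.2 kb of genome, against 19.7 kb for all control-silent genes and 27.1 kb for all protein-coding genes. Raw counts grow with transcript length, so the choice may favour long genes. Its part in this contrast was not tested.

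The nearest protein-coding gene on each side that overlaps no member, within 250 kb, was taken as a neighbour. These neighbours were not chosen by their own counts, except that a gene past the same limits would be a member. Of 115 neighbours 53 were themselves at or under the control limit, and 63 passed the expression filter and were tested. Of the 63 tested neighbours 28 rose (44.4%) and 14 fell (22.2%), beside 28.3% and 28.7% of all 11792 tested protein-coding genes. Their median log2 fold change was 0.11, against 0.00 for all. Within 50 kb of a member 19 of 35 rose and 6 fell, with a median of 0.19, and beyond 50 kb 9 of 28 rose and 8 fell, with a median of 0.01, a split chosen after the data were seen. The difference between these counts and the background was not tested.

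Changes of at least 2-fold were found upward for 6 of the 63 tested neighbours and downward for 3. The shares among all tested protein-coding genes were 5.05% and 2.24%, and the difference was not tested. SH3BGRL2, 93.9 kb from LCA5, rose by 4.06 (SE 0.15, edgeR adjusted p = 2.32e-12), from 18, 35 and 22 counts to 488, 485 and 773. PLXNA2, a semaphorin receptor 111 kb from CD34, rose by 2.78 from 1, 4 and 4 counts and missed the choice because EZH2 shRNA library 1 had 18. ZDBF2, 129 kb from ADAM23, rose by 1.78 and ITM2A, 185 kb from GPR174, by 1.29. RIPOR2, 237 kb from CARMIL1, fell (-3.38, edgeR adjusted p = 6.18e-06) and is one of the 8 genes switched off by the mirrored limits. DMC1, a meiotic recombinase 35.5 kb from KDELR3 (-1.53), and LPP, 56.5 kb from TPRG1 (-1.03, named after its value was seen), also fell. MINDY4, beside AQP1, was at 1.08 with an adjusted p of 0.0449 in edgeR, a call that 7 of the 10 alternative fits ended (adjusted p up to 0.18, without control library 3). Both neighbours rose for AL157935.2, CTNNA1 and EPB41L1, and both fell for GRIP1 and REEP1. For 12 members neither of 2 neighbours could be tested.

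**Figure D4:**
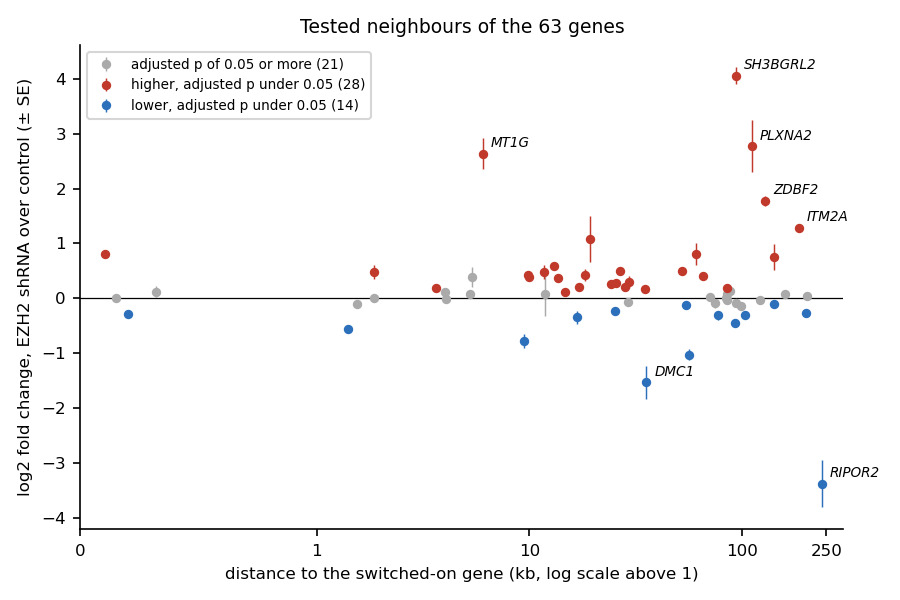
Log2 fold change of the 63 tested neighbours (EZH2 shRNA over control, bars are SE) against the distance to the nearest edge of the switched-on gene in kb. Red points (28) rose, blue points (14) fell and grey points (21) did not pass an adjusted p of 0.05. Most of the points lie within 1 unit of 0, and SH3BGRL2 and RIPOR2 stand farthest out.

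Promoter composition was read from GRCh38 in a window of 250 bases before to 50 after the start of the canonical GENCODE transcript, which all 63 members had. A window was called CpG-rich at a GC content of at least 55% and a CpG observed over expected of at least 0.6. By this rule 38 of 63 members were CpG-rich (60.3%, exact 95% binomial interval 47.2 to 72.4). The share was 37.3% among control-silent genes that stayed outside the choice 82.0% among genes with 20 or more counts in every library, and 62.2% among all protein-coding genes, close to the members' share. No test was made of these shares. With the start of the deposited gene body in place of the canonical start, the members' share was 42.9% (30.5 to 56.0), an interval that includes the 30.7% of the other silent genes. By class, 4 of 4 germ cell and cilium genes and 10 of 13 nerve and synapse genes were CpG-rich, but 2 of 11 blood and immune genes, namely IKZF3 (observed over expected 1.01) and CD34 (0.666). CPA3 held 0 CpG in its window and CYSLTR2 held 2. GABBR1 and SLC1A1, printed above, were CpG-rich, and SOX13 (observed over expected 0.597 in this window) and TMEM273 (0.172) were not.

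**Figure D5:**
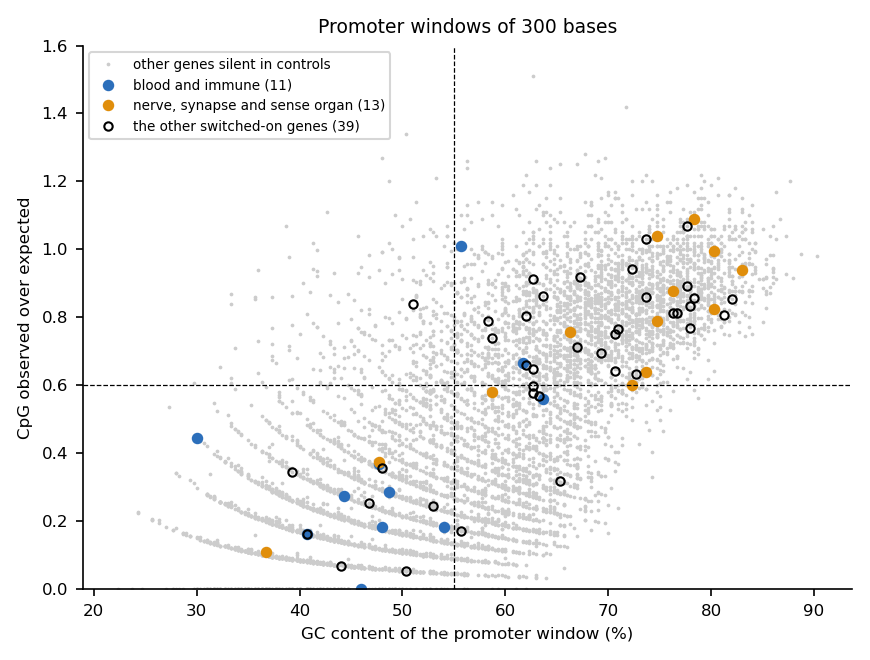
GC content (%) against CpG observed over expected in promoter windows, with the members in blue (blood and immune), orange (nerve, synapse and sense organ) and open black circles (the other 39) over the remaining control-silent genes in grey. Dashed lines mark the limits of 55% and 0.6, and 2 blue and 10 orange points lie in the upper right field.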

How the data were processed

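RNA of 6 HL-60 libraries, 3 per group, was compared. The authors deposited raw counts, whole reads per gene, and FPKM values. Per the submitters' processing notes, GRCh38 was the build and DESeq2 1.24.0, STAR 2.5.2b, R 3.6.1 and Picard 2.18.24 were among the tools. Not given in the sources used here are the counter, the annotation and whether strand was used, although the kit was stranded per the labels. Dividing the counts by the deposited FPKM and DESeq2 size factors returned whole gene lengths (tolerance 0.001) for 29060 of 29060 genes, so both tables hold the same counts.

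The members and lists were chosen with earlier results of these data known. Classes were assigned by hand after the members were known. CPM used totals with TMM factors. All 16859 genes kept by filterByExpr were fitted with the quasi-likelihood test of edgeR 4.0.16 (R 4.3.3, robust, group only, Benjamini-Hochberg, threshold 0.05); SE was the absolute log2 fold change, computed here from the deposited counts, over the root of F. The test was also run on simulated counts with the same spread between replicates set for every gene. That run does not show how the test performs at the spread of these libraries. Alternatives were DESeq2 1.42.0, its size factors in edgeR, no filter, a replicate block, each library left out, and other limits and distances.

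Values in every library were to be given for the 25 members with most CPM, up to 4 per list and members within 500 kb of each other, and 8 neighbours by size of change. The RefSeq promoter table matched 42 of 63 members (66.7%), too few for a comparison over the set, so canonical starts of GENCODE release 44 on GRCh38 were used instead, a change made after seeing the data. The printed sequences are from the 30 members with 1 RefSeq window, the first 2 CpG-rich and the first 2 others by CPM. Values of 1 member are not reported here.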

Additional observations from a re-analysis of the deposited data

Results flagged for a closer look

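The same limits applied to rows that are not annotated as protein-coding found 14 more, of 33561 such rows at or under the control limit, and 0 with the groups exchanged. They were noted because the report's comparisons do not use these rows. None lay within 250 kb of a protein-coding member. The strongest was the long non-coding RNA AC016074.2, at 0.0253, 0.153 and 0.212 CPM in controls and 3.67, 3.28 and 3.99 CPM with EZH2 shRNA. GATA6-AS1, an antisense transcript, was at a mean of 1.47 CPM with EZH2 shRNA, and 4 of the 14 were pseudogenes, whose reads can belong to a parent gene.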

How the results depend on the processing

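The number of switched-on genes moved with the limits: 31 with at most 10 counts over the controls, 159 with at most 40, 174 with at least 10 counts per EZH2 shRNA library, 17 with at least 40, and 38 with totals scaled to the smallest library. The switched-off number was 3, 26, 16, 5 and 15 under the same changes. Leaving out a library gave 64 to 124 switched-on and 8 to 20 switched-off genes. By construction a sum over fewer libraries meets the same limit more easily, as with controls 3, 4 and 5 (101, 124 and 101). A lowest count over fewer libraries does so too. The 63 members therefore had to stay in each of these 6 sets, which is no result. Leaving out EZH2 shRNA libraries 1, 3 and 4 gave 13, 18 and 20 switched-off genes.

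The counts of neighbours that rose or fell stayed within 1.5 times under every alternative fit and distance. Their median log2 fold change was 0.16 without a filter, 0.07 to 0.12 with single libraries left out, and 0.07 without neighbours of members that overlap another gene (an alternative chosen after seeing the data). With the title number as a replicate block 24 neighbours rose and 13 fell, with a median of 0.09, and no call on EZH2 changed (-0.90). Numbers 3 and 4 occur in both groups, but the deviations of same-numbered libraries correlated at only 0.058 and 0.059, so they were not taken as pairs. The median FPKM reached was 0.142 to 0.157 with single EZH2 shRNA libraries left out. The CpG-rich share was 44.4% with observed over expected of at least 0.75 and 42.9% with the gene body start, both on windows chosen after seeing the data. At these depths 3 counts correspond to between 0.0353 and 0.0759 CPM, so ratios against controls with few counts are imprecise.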
